A study of Mus musculus with 18 samples.

Results

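Transcripts of 9 genes that carry, store, oxidise or clear retinoids were compared across 18 mouse livers. They were Rbp4 and Stra6l for transport, Retsat for the saturation of retinol, Rdh16f2, Rdh9 and Adh7 for the oxidation of retinol, Aldh1a1 and Aldh1a7 for the oxidation of aldehydes, and Cyp26a1 for the clearance of retinoic acid. The genes were taken by symbol, 9 of the 19057 lines of the expression table, and they had been chosen from measured values in these same livers. Their levels and changes are therefore a description, and the p values beside them carry no independent weight.

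The liver holds most of the body's vitamin A. Dietary retinol is esterified and stored in hepatic stellate cells, and hepatocytes release it into blood bound to retinol-binding protein and transthyretin. Inside cells, retinol is oxidised reversibly to retinal by retinol and alcohol dehydrogenases, and retinal irreversibly to retinoic acid by retinal dehydrogenases. Retinoic acid binds the nuclear receptors RAR, which pair with RXR on DNA, and Cyp26 enzymes hydroxylate it for removal. Cyp26a1 is itself a classic retinoic acid target gene, so that its transcript commonly follows the acid's supply in liver.

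The study asked whether intestinal microbiota from mice dosed with alginate oligosaccharide (AOS) alter the effects of a high-fat diet (HFD), and the livers were taken from ICR mice, 10 weeks old, in 6 groups of 3. The control group (Con) carried no further treatment in its label, and the AOS group was labelled with AOS at 10 mg/kg and no diet. The HFD group received the diet alone, and the HFD+AOS group the diet with AOS at 10 mg/kg. The Con-FMT and A10-FMT groups received the diet and a microbiota transplant, from control donors and from donors dosed with AOS at 10 mg/kg. By the study's methods, which describe male mice and 4 of these groups but not AOS and HFD+AOS, the Con and HFD mice were given saline, and the transplant was intestinal content pooled within each donor group and given by mouth. Each transplant group therefore stands for a single donor pool.

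Each liver is named by its group and replicate number. The deposited values are RPKM, read numbers scaled by gene length and library size, which allow levels to be compared between genes. They summed to between 692303 and 806937 in a liver, and between 14512 and 14982 genes were above 0, with an absolute depth that is unknown. The hepatocyte markers Alb and Apoa1 were abundant in all 18 livers, at 24370 RPKM or more and 7890 RPKM or more. The livers Con 3 and AOS 3 stood apart. Among genes that separate the other livers of the group clearly, Con 3 lay between Con 1 and Con 2 for 180 of 184 genes (97.8%) and AOS 3 between AOS 1 and AOS 2 for 155 of 160 (96.9%), against 51.7% to 70.4% for each liver of the other 4 groups. Of the 9 retinoid genes, 4 in Con 3 and 6 in AOS 3 lay between the values of the other livers. For the separating genes, the best-fitting weighted mean of Con 1 and Con 2 (weights 0.54 and 0.46) differed from Con 3 by a median of 0.0650 log2 units. That of AOS 1 and AOS 2 (weights 0.37 and 0.63) differed from AOS 3 by 0.0753. For each liver of the other 4 groups the same median was 0.308 to 0.540. Whether Con 3 and AOS 3 are independent of the other libraries of their groups was not tested. The n = 3, the SD and the p values of Con and AOS assume that they are. Comparisons with Con or AOS are therefore also given without Con 3 and AOS 3. The sum of 6 adipocyte markers was 38.3 RPKM in A10-FMT 1 and between 7.60 and 15.6 RPKM in the other livers.

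Groups were compared with limma on log2(RPKM + 1) over 10507 genes that reached 1 RPKM in 3 or more livers, a filter which all 9 retinoid genes passed. A gene was called at a Benjamini-Hochberg adjusted p under 0.05 over all of these genes. All fold changes refer to log2(RPKM + 1), so those of low genes come out too small. The p values measure the spread between the livers deposited, and in whole liver, fewer cells of a type and less RNA per cell cannot be told apart.

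The 9 genes covered a wide span of abundance. Rbp4 was among the most abundant transcripts of the liver, with a median of 3122 RPKM over the 18 livers, above 99.7% of the genes tested. Aldh1a1 had a median of 507 RPKM and Retsat 155 RPKM. Stra6l, Rdh16f2 and Aldh1a7 had medians of 59.6, 57.3 and 31.2 RPKM. Cyp26a1, Rdh9 and Adh7 were the least abundant, at 9.95, 9.57 and 5.97 RPKM, near the middle of all genes tested. The highest liver exceeded the lowest 1.89-fold for Rbp4, 7.99-fold for Aldh1a7 and 36.2-fold for Cyp26a1.

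**Figure D1:**
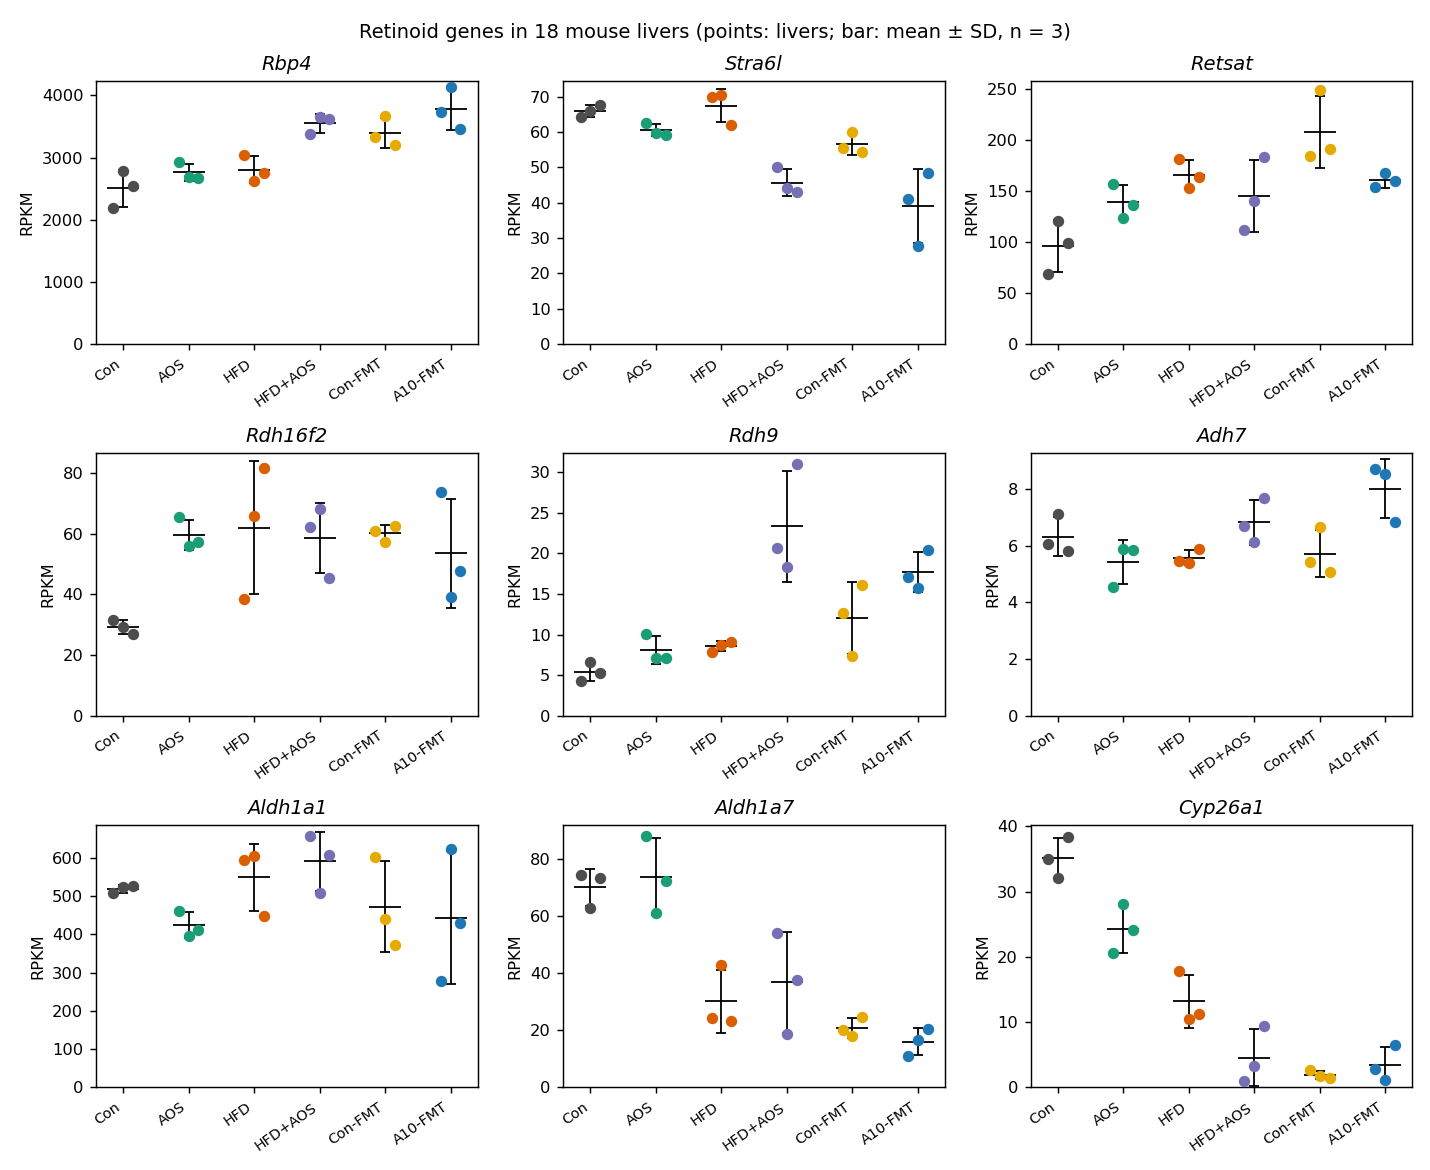
RPKM of the 9 retinoid genes in each of 18 livers, on linear axes that start at 0. Points are livers 1 to 3 from left to right, and bars are the group mean ± SD (n = 3). Cyp26a1 lay at 20.6 RPKM or more in the Con and AOS livers and at 17.9 RPKM or less in the other 12.

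Cyp26a1, the enzyme that clears retinoic acid, had the widest span of the 9 genes. It lay at 34.97, 32.1 and 38.4 RPKM in the Con livers and at 20.6, 28.1 and 24.1 RPKM in the AOS livers. In the HFD livers it lay at 17.9, 10.5 and 11.2 RPKM, and in the HFD+AOS livers at 1.06, 3.24 and 9.41 RPKM. The Con-FMT livers held 2.67, 1.70 and 1.45 RPKM and the A10-FMT livers 2.80, 1.19 and 6.53 RPKM. By group mean the order was Con, AOS, HFD, HFD+AOS, A10-FMT and Con-FMT, from 35.1 ± 3.12 down to 1.94 ± 0.644 RPKM (SD, n = 3). The livers of Con, AOS, HFD and HFD+AOS did not overlap from one group to the next in this order, while those of HFD+AOS, A10-FMT and Con-FMT did. All 12 livers of HFD-labelled mice, with a median of 3.02 RPKM, lay below all 6 others, with a median of 30.1 RPKM.

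The change of Cyp26a1 from Con to HFD did not pass the threshold (log2 fold change -1.38, SE 0.46, adjusted p = 0.176). Without Con 3 and AOS 3 its log2 fold change was -1.32 and its adjusted p was 0.456. Nor did that from Con to AOS (log2 fold change -0.52, SE 0.46, adjusted p = 0.616). Compared with HFD, Cyp26a1 fell in the A10-FMT livers (log2 fold change -1.80, SE 0.46, adjusted p = 0.0292) and in the HFD+AOS livers (log2 fold change -1.62, SE 0.46, adjusted p = 0.0403). These comparisons share the HFD livers. The larger difference between Con-FMT and HFD was not called (log2 fold change -2.26, SE 0.46, adjusted p = 0.331), a comparison in which 1 gene of all tested was called, and A10-FMT did not differ from Con-FMT past the threshold (log2 fold change 0.46, SE 0.46, adjusted p = 0.662). Compared with AOS, Cyp26a1 fell in the HFD+AOS livers (log2 fold change -2.48, SE 0.46, adjusted p = 0.00535), and this call held under all 12 alternative settings, with an adjusted p of 0.0415 without Con 3 and AOS 3.

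With only the groups compared in the fit, Cyp26a1 was called in Con-FMT against HFD (adjusted p = 0.0405) and not in A10-FMT against HFD (adjusted p = 0.110) or HFD+AOS against HFD (adjusted p = 0.130). The Cyp26a1 calls in A10-FMT and HFD+AOS against HFD each rested on all but 1 of the livers compared. For A10-FMT the adjusted p of Cyp26a1 was between 0.0607 and 0.145 without HFD 1, HFD 2, HFD 3, A10-FMT 1 or A10-FMT 2, and 0.00649 without A10-FMT 3, the liver with the most Cyp26a1 of that group. For HFD+AOS it was between 0.0732 and 0.177 without HFD 1, HFD 2, HFD 3, HFD+AOS 1 or HFD+AOS 2, and 0.00661 without HFD+AOS 3. The log2 fold change of Cyp26a1 against HFD fell in size from -1.62 to -1.06 without HFD+AOS 1, its lowest liver.

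The sequence before the Cyp26a1 start is shown because retinoic acid receptors are known to act there. Cyp26a1 lies on chromosome 19 (GRCm38, 37697798 to 37701536, + strand). The RefSeq sequence below (GRCm38.p6, chr19:37697558-37697807, + strand) is that of the 250 bases before its RefSeq start. Capitals mark a direct repeat of the hexamer TGAACT with 5 bases between the copies, the arrangement to which RAR and RXR typically bind.
Cyp26a1: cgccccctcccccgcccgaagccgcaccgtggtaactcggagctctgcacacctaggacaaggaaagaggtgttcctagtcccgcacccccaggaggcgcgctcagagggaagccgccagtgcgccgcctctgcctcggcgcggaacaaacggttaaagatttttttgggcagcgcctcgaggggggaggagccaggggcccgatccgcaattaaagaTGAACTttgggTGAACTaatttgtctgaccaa
The repeat spans bases -32 to -16 from the start and reads AGTTCA on the - strand. The search was for direct repeats of the hexamers AGGTCA or AGTTCA, or of GGGTCA or GGTTCA, in any pairing and on either strand, with 1, 2 or 5 bases between the copies. Repeats with 5 bases between occurred in 32 of 32851 annotated RefSeq windows of 300 bases, from 250 before to 50 after a start (0.0974%). Those with 1 base occurred in 73 (0.222%) and those with 2 bases in 88 (0.268%). In the 12 windows of the 9 retinoid genes, the Cyp26a1 repeat was the only match. A match describes letters and not occupancy.

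Rbp4, the plasma carrier that brings retinol out of the liver, had its highest levels in the HFD-labelled mice that also received AOS or a transplant. It lay at 2192, 2782 and 2542 RPKM in Con, 2924, 2694 and 2668 RPKM in AOS and 3042, 2615 and 2748 RPKM in HFD. It lay at 3327, 3668 and 3202 RPKM in Con-FMT, 3378, 3659.8 and 3616 RPKM in HFD+AOS and 3736, 4134 and 3459 RPKM in A10-FMT. The Con, AOS and HFD livers overlapped with one another, and the lowest liver of Con-FMT, HFD+AOS or A10-FMT exceeded the highest of HFD. Rbp4 rose from HFD to A10-FMT (log2 fold change 0.43, SE 0.11, adjusted p = 0.0261). The differences of HFD+AOS from HFD (log2 fold change 0.34, SE 0.11, adjusted p = 0.0565) and of Con-FMT from HFD (log2 fold change 0.28, SE 0.11, adjusted p = 0.683) did not pass, nor did that of HFD from Con (log2 fold change 0.16, SE 0.11, adjusted p = 0.481) or of A10-FMT from Con-FMT (log2 fold change 0.15, SE 0.11, adjusted p = 0.517). Without HFD 2, HFD 3, A10-FMT 1 or A10-FMT 2 the adjusted p for A10-FMT against HFD was between 0.0817 and 0.126, and with only those groups in the fit it was 0.156. In A10-FMT 1, the liver with the most adipocyte marker transcripts, Rbp4 was the middle value of its group. The sum of 6 hepatocyte markers was 59670 to 69690 RPKM in HFD and 60660 to 65030 RPKM in A10-FMT, ranges that overlapped. A sum does not show how each marker moved, and the part of hepatocytes in the Rbp4 difference was not tested. Rbp4 lies on chromosome 19 (38116629 to 38125281, - strand), 415092 bases from Cyp26a1.

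Stra6l, the receptor that takes up retinol from the Rbp4 complex in liver, had its lowest levels in the HFD-labelled mice that received AOS or microbiota of AOS-dosed donors. It lay at 64.4, 65.9 and 67.6 RPKM in Con, 62.6, 59.9 and 59.3 RPKM in AOS and 70.0, 70.6 and 62.1 RPKM in HFD. It lay at 55.6, 60.1 and 54.4 RPKM in Con-FMT, 50.04, 44.1 and 43.0 RPKM in HFD+AOS and 41.0, 27.7 and 48.5 RPKM in A10-FMT. Every HFD+AOS and A10-FMT liver lay below every liver of the other 4 groups. Compared with HFD, Stra6l fell in A10-FMT (log2 fold change -0.81, SE 0.14, adjusted p = 0.00273) and in HFD+AOS (log2 fold change -0.55, SE 0.14, adjusted p = 0.0240). The fall in A10-FMT held whichever of the 6 livers was left out, with an adjusted p of 0.112 when only these groups were fitted. The fall in HFD+AOS had an adjusted p of 0.0659 to 0.0761 without HFD 2, HFD+AOS 2 or HFD+AOS 3. Its change from HFD to Con-FMT was not called (log2 fold change -0.25, SE 0.14, adjusted p = 0.786). The difference between the transplant groups just missed the threshold (log2 fold change -0.56, SE 0.14, adjusted p = 0.0532). It was called without A10-FMT 3 (adjusted p = 0.00341) and had a log2 fold change of -0.34 and an adjusted p of 0.157 without A10-FMT 2, the lowest liver. From Con to HFD, Stra6l had a log2 fold change of 0.03 (adjusted p = 0.938), whose sign turned when the livers' medians were set equal. Stra6l lies on chromosome 4 (45848664 to 45887008, + strand).

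Retsat, which saturates retinol to dihydroretinol, was lowest in Con and highest in Con-FMT. It lay at 69.0, 121 and 98.5 RPKM in Con, 157, 124 and 137 RPKM in AOS and 181, 153 and 164 RPKM in HFD. It lay at 112, 140.0 and 183 RPKM in HFD+AOS, 184, 248.9 and 191 RPKM in Con-FMT and 153, 168 and 160.1 RPKM in A10-FMT. The HFD livers all lay above the Con livers, but the difference did not pass the threshold (log2 fold change 0.82, SE 0.19, adjusted p = 0.0804). It passed without Con 2, the highest Con liver (adjusted p = 0.01995), and its adjusted p was 0.345 without Con 3 and AOS 3. Retsat was called in 0 of the 7 pairwise comparisons with limma, with an unadjusted p of 0.00951 for AOS and 0.000562 for HFD, each compared with Con. Retsat lies on chromosome 6 (72598475 to 72608425, + strand), and 7.52% of its transcript's 50-base stretches also occur in the overlapping annotated gene Gm45053.

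Rdh9 and Rdh16f2 are members of the retinol dehydrogenase family in a cluster on chromosome 10 (127776386 to 127792697 and 127866474 to 127877317, + strand), 73776 bases apart, with Rdh16 and Rdh19 between them. Rdh9 was highest in the HFD+AOS and A10-FMT livers. It lay at 4.27, 6.56 and 5.28 RPKM in Con, 10.1, 7.13 and 7.06 RPKM in AOS and 7.86, 8.70 and 9.08 RPKM in HFD. It lay at 12.7, 7.31 and 16.1 RPKM in Con-FMT, 17.1, 15.7 and 20.5 RPKM in A10-FMT and 20.7, 18.3 and 31.1 RPKM in HFD+AOS. The HFD+AOS livers lay above all Con, AOS, HFD and Con-FMT livers. Compared with HFD, Rdh9 rose in HFD+AOS (log2 fold change 1.32, SE 0.23, adjusted p = 0.00331) and in A10-FMT (log2 fold change 0.97, SE 0.23, adjusted p = 0.0220). It rose from AOS to HFD+AOS as well (log2 fold change 1.40, SE 0.23, adjusted p = 0.00258), with an adjusted p of 0.0345 without Con 3 and AOS 3. The calls for HFD+AOS held under all 12 alternative settings in each comparison. That for A10-FMT had an adjusted p of 0.0502 to 0.0630 without HFD 2, HFD 3, A10-FMT 1 or A10-FMT 2. Rdh9 did not differ past the threshold between HFD and Con (log2 fold change 0.60, SE 0.23, adjusted p = 0.234) or between AOS and Con (log2 fold change 0.51, SE 0.23, adjusted p = 0.305).

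Rdh16f2 was lowest in the Con livers. It lay at 31.7, 29.2 and 27.0 RPKM in the Con livers and at 38.3 RPKM or more in every other liver. The AOS livers held 65.3, 56.1 and 57.3 RPKM, the HFD livers 38.3, 65.8 and 81.5 RPKM and the HFD+AOS livers 62.2, 67.9 and 45.5 RPKM. The Con-FMT livers held 60.7, 57.3 and 62.6 RPKM and the A10-FMT livers 73.6, 39.3 and 47.6 RPKM. Those 5 groups overlapped. Neither the difference of HFD from Con (log2 fold change 0.99, SE 0.24, adjusted p = 0.0873) nor that of AOS from Con (log2 fold change 1.00, SE 0.24, adjusted p = 0.0886) passed the threshold. The first passed without HFD 1 (adjusted p = 0.0335), the lowest HFD liver, and the second when only Con and AOS were fitted (adjusted p = 0.00974). Without Con 3 and AOS 3 the adjusted p values were 0.377 and 0.523.

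Reads of genes in this cluster could be shared. Of the 50-base stretches of the longest Rdh9 transcript, 92.3% also occur in transcripts of other genes, most of them in the overlapping Rdh16f1, which was not analysed here, and 20.5% in genes that do not overlap it. The share was 10.0% for Rdh16f2. The aligned parts of the Rdh9 and Rdh16 transcripts were 94.1% identical, and those of Rdh9 and Rdh16f2 91.2%. The mapping settings in the study's methods report every hit of a read, so the Rdh9 and Rdh16f2 values are uncertain as measures of single genes. Their ratio differed between livers, and the part of shared reads in it was not tested. Rdh16f2 RPKM divided by Rdh9 RPKM was 7.41, 4.46 and 5.10 in Con and 6.49, 7.86 and 8.12 in AOS. The ratio was 4.88, 7.57 and 8.98 in HFD, 3.01, 3.72 and 1.47 in HFD+AOS, 4.78, 7.84 and 3.88 in Con-FMT, and 4.32, 2.498 and 2.33 in A10-FMT. All HFD+AOS and A10-FMT livers thus lay below all HFD livers in this ratio, and above them in Rdh9, its denominator.

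Adh7, an alcohol dehydrogenase with high activity towards retinol that is best known from stomach and upper gut epithelium, was low in every liver, from 4.53 to 8.69 RPKM. It lay at 6.04, 7.11 and 5.80 RPKM in Con, 4.53, 5.89 and 5.84 RPKM in AOS and 5.45, 5.38 and 5.88 RPKM in HFD. It lay at 6.68, 6.12 and 7.68 RPKM in HFD+AOS, 5.43, 6.65 and 5.06 RPKM in Con-FMT and 8.69, 8.52 and 6.82 RPKM in A10-FMT. Adh7 rose from HFD to A10-FMT (log2 fold change 0.45, SE 0.12, adjusted p = 0.0318). The adjusted p was between 0.0522 and 0.126 without HFD 1, HFD 2, HFD 3, A10-FMT 1 or A10-FMT 2, and 0.0109 without A10-FMT 3, so that this call rested on all but 1 of the livers. Its difference between A10-FMT and Con-FMT did not pass (log2 fold change 0.42, SE 0.12, adjusted p = 0.0819), and was called when the livers' medians were set equal (adjusted p = 0.0454). Of 7 stomach and foregut markers in the table, Muc5ac and Krt13 were listed at 0 in all 18 livers, and the sum of the list was at most 0.19 RPKM. Adh7 lies on chromosome 3 (138217760 to 138233382, + strand), and the 1.83% of its 50-base stretches found elsewhere belong to the overlapping gene 0610031O16Rik.

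Aldh1a1, the main retinal dehydrogenase of liver, and its close paralogue Aldh1a7 lie on chromosome 19 in opposite orientation, 49487 bases apart (20492715 to 20643465, + strand, and 20692953 to 20727562, - strand). Aldh1a1 was abundant and showed no call in 7 pairwise comparisons with limma. It lay at 507, 523 and 525 RPKM in Con, 462, 396 and 412 RPKM in AOS and 594, 606 and 448 RPKM in HFD. It lay at 657, 507 and 608 RPKM in HFD+AOS, 603, 439 and 373 RPKM in Con-FMT and 277, 624 and 431 RPKM in A10-FMT. The A10-FMT livers spanned the lowest value of the series and one of the highest. From Con to HFD the log2 fold change of Aldh1a1 was 0.07 (SE 0.23, adjusted p = 0.913).

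Aldh1a7 separated the HFD-labelled livers from the others. It lay at 74.1, 62.6 and 73.1 RPKM in Con and 88.0, 61.1 and 72.0 RPKM in AOS. It lay at 24.4, 42.8 and 23.2 RPKM in HFD and 54.0, 18.8 and 37.5 RPKM in HFD+AOS, and at 20.1, 17.9 and 24.8 RPKM in Con-FMT and 11.01, 16.6 and 20.4 RPKM in A10-FMT. Every liver of an HFD-labelled mouse lay below every Con and AOS liver, with medians of 21.8 and 72.6 RPKM. None of its comparisons passed the threshold, among them HFD against Con (log2 fold change -1.24, SE 0.31, adjusted p = 0.0967) and HFD+AOS against AOS (log2 fold change -1.09, SE 0.31, adjusted p = 0.0519). The latter was called with the livers' medians set equal (adjusted p = 0.0433) and without HFD+AOS 1 (adjusted p = 0.0213), whereas without HFD+AOS 2 the log2 fold change was -0.68 (adjusted p = 0.203). Without Con 3 and AOS 3 the adjusted p values of these comparisons were 0.378 and 0.181.

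The ratio of the paralogues within a liver separated the HFD-labelled livers from the others too. Its denominator, Aldh1a7, did so alone, so the ratio is not a separate observation. Aldh1a1 RPKM divided by Aldh1a7 RPKM was 6.84, 8.36 and 7.19 in Con and 5.25, 6.49 and 5.73 in AOS. It was 24.4, 14.2 and 19.3 in HFD, 12.2, 27.0 and 16.2 in HFD+AOS, 30.1, 24.6 and 15.03 in Con-FMT, and 25.2, 37.6 and 21.1 in A10-FMT. The lowest ratio of an HFD-labelled liver, 12.2, exceeded the highest of the others, 8.36. Transcripts of the genes were 89.5% identical where they aligned, and 6.54% of the 50-base stretches of Aldh1a1 and 7.49% of those of Aldh1a7 were shared, each with the other gene alone.

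The sequences directly before starts of the paralogues are shown because they are nearly the same at one start of Aldh1a1. RefSeq gives Aldh1a1 more than one start, and the sequence before the start within the gene is the one that resembles Aldh1a7. Shown are the 110 bases before that start and before the start of Aldh1a7 (GRCm38.p6, chr19:20601858-20601967, + strand, and chr19:20727557-20727666, - strand), and capitals mark the bases that differ.
Aldh1a1: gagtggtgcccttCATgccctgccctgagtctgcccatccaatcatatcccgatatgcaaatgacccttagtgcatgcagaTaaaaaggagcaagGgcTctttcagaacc
Aldh1a7: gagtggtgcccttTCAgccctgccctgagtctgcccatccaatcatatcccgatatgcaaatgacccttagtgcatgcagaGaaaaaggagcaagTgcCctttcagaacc
Of the 110 bases, 104 were identical and 6 differed (94.5% identity). In the windows of Rdh9 and Rdh16f2, the best-scoring local alignment covered 42 bases with 69.0% identity.

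**Figure D2:**
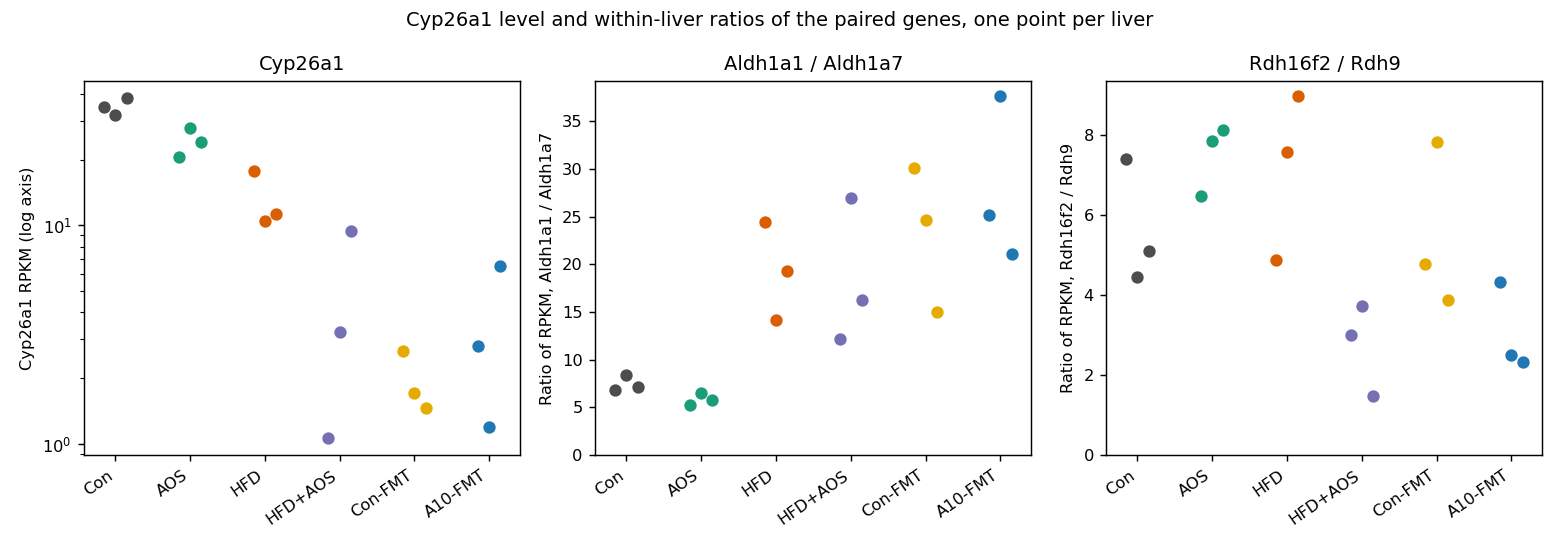
One point per liver, for Cyp26a1 RPKM on a log axis (left), Aldh1a1 RPKM divided by Aldh1a7 RPKM (middle) and Rdh16f2 RPKM divided by Rdh9 RPKM (right). The Aldh1a1 to Aldh1a7 ratio was 8.36 or less in the Con and AOS livers and 12.2 or more in the 12 HFD-labelled livers. Aldh1a7, the denominator, separated these livers by itself.

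The calls differed in number by comparison. In HFD against Con, limma called 0 of the 9 genes and 0.381% of all genes tested. An unadjusted p under 0.05 was held by 5 of the 9 and by 1623 of all 10507 genes. The livers of these groups did not overlap for Retsat, Rdh16f2, Rdh9, Aldh1a7 and Cyp26a1, against 18.5% of all genes. In AOS against Con limma called 0 of 9 and 0.133% of all genes. Unadjusted, 3 of the 9 and 1633 of all 10507 genes were under 0.05. The livers of Stra6l, Retsat, Rdh16f2, Rdh9, Aldh1a1 and Cyp26a1 did not overlap, against 24.7% of all genes. Without Con 3 and AOS 3 the adjusted p of the 9 genes ranged from 0.345 (Retsat) to 0.945 (Aldh1a1) in HFD against Con and from 0.523 (Rdh16f2) to 0.953 (Aldh1a7) in AOS against Con.

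In A10-FMT against HFD, limma called 5 of the 9 genes, with Rbp4, Rdh9 and Adh7 higher and Stra6l and Cyp26a1 lower, and 6.60% of all genes. Without Con 3 and AOS 3, which enter this comparison only through the shared estimate of spread, Stra6l and Rdh9 kept their calls and the adjusted p was 0.0562 for Rbp4, 0.0535 for Adh7 and 0.0573 for Cyp26a1. The livers did not overlap for the 5 called genes and Aldh1a7, against 23.4% of all genes. In Con-FMT against HFD limma called 0 of 9 and 0.00952% of all genes. Unadjusted, 2 of the 9 and 697 of all 10507 genes were under 0.05. Rbp4, Stra6l, Retsat and Cyp26a1 did not overlap there, against 10.1% of all genes. In A10-FMT against Con-FMT limma called 0 of 9 and 1.68% of all genes. Unadjusted, 3 of the 9 (Stra6l, Rdh9 and Adh7) and 1727 of all 10507 genes were under 0.05. Stra6l, Retsat and Adh7 did not overlap, against 18.3% of all genes. The hepatocyte marker sums of these groups did not overlap either, at 60660 to 65030 RPKM in A10-FMT and 69280 to 71970 RPKM in Con-FMT, and their part was not tested. Both transplant comparisons with HFD share the HFD livers.

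In HFD+AOS against HFD, limma called Rdh9 higher and Stra6l and Cyp26a1 lower, 3 of the 9 genes, and 8.75% of all genes. The adjusted p was 0.0501 for Stra6l and 0.0744 for Cyp26a1 without Con 3 and AOS 3. Rbp4, Stra6l, Rdh9, Adh7 and Cyp26a1 did not overlap, against 27.2% of all genes. In HFD+AOS against AOS it called Rdh9 higher and Cyp26a1 lower and 5.44% of all genes, and 7 of the 9 genes, all but Retsat and Rdh16f2, did not overlap, against 28.7% of all genes. The difference between the effect of AOS on the HFD and its effect without it was called for 0 of 9 genes and for 0.504% of all genes. Its unadjusted p was under 0.05 for 5 of the 9 and for 1541 of all 10507 genes. The 5 were Stra6l, Retsat, Rdh16f2, Rdh9 and Adh7. For Rdh16f2 the difference was log2 -1.03 (SE 0.33, adjusted p = 0.171), and it was called without HFD 1 (adjusted p = 0.0284). For Cyp26a1, which was not among the 5, it was log2 -1.10 (SE 0.65, unadjusted p = 0.111, adjusted p = 0.453). Without Con 3 and AOS 3 the adjusted p was 0.486 for Rdh16f2 and 0.667 for Cyp26a1. The log2 difference of Cyp26a1 was -0.53 without HFD+AOS 1 and -1.70 without HFD+AOS 3. Between all 12 HFD-labelled livers and the other 6, the values of Aldh1a7 and Cyp26a1 did not overlap, 2 of the 9 genes, against 0.628% of all genes. Because the 9 genes were chosen on these values, nothing is read from their counts beside those of all genes.

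**Figure D3:**
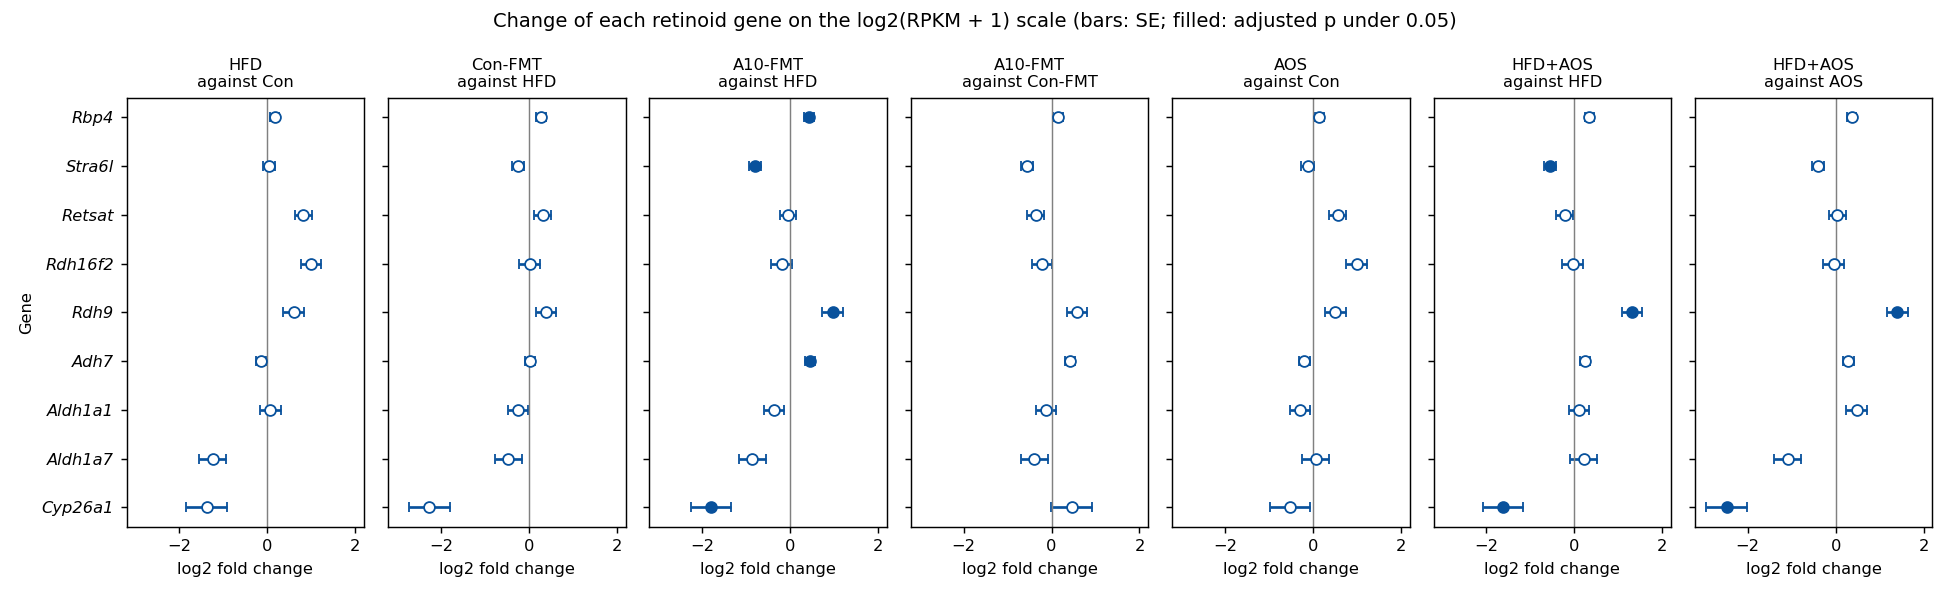
Log2 fold change of each retinoid gene on the log2(RPKM + 1) scale in 7 comparisons of groups of 3 livers, with SE bars from limma. Filled points passed an adjusted p under 0.05, which 5 genes did in A10-FMT against HFD, 3 in HFD+AOS against HFD and 2 in HFD+AOS against AOS.

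The rest of the pathway was followed with a list of 58 further retinoid genes, of which 56 were in the table and 40 were tested. Limma called 0 of the 40 in HFD against Con (0.381% of all genes) and 0 in AOS against Con (0.133%). It also called 0 in Con-FMT against HFD (0.00952%) and in A10-FMT against Con-FMT (1.68%). In HFD against Con, 8 of the 40 and 1623 of all 10507 genes had an unadjusted p under 0.05. The corresponding counts were 12 and 1633 in AOS against Con, 5 and 697 in Con-FMT against HFD, and 6 and 1727 in A10-FMT against Con-FMT. Limma called 2 of 40 in A10-FMT against HFD, beside 6.60% of all genes, 4 in HFD+AOS against HFD, beside 8.75%, and 7 in HFD+AOS against AOS, beside 5.44%. In A10-FMT against HFD their median log2 fold change was 0.11, that of the 9 genes -0.19 and that of all genes tested -0.03. In HFD+AOS against HFD the corresponding medians were 0.15, 0.11 and -0.01.

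Among 7 nuclear receptors, Ppard alone was called, in comparisons where 5.44% to 8.75% of all genes were called. PPAR delta is a lipid-sensing receptor for which retinoic acid has also been described as a ligand. Ppard lay at 16.0, 18.1 and 18.7 RPKM in Con, 7, 10.9 and 9.11 RPKM in AOS and 6.31, 13.6 and 15.8 RPKM in HFD. It lay at 2.26, 1.78 and 2.17 RPKM in HFD+AOS, 5.97, 5.17 and 2.95 RPKM in Con-FMT and 2.05, 2.42 and 2.24 RPKM in A10-FMT. Ppard fell from HFD to HFD+AOS (log2 fold change -1.99, SE 0.25, adjusted p = 0.000230), from HFD to A10-FMT (log2 fold change -1.91, SE 0.25, adjusted p = 0.000350) and from AOS to HFD+AOS (log2 fold change -1.69, SE 0.25, adjusted p = 0.00126), each under all 12 alternative settings. Its fall from HFD to Con-FMT was not called (log2 fold change -1.13, SE 0.25, adjusted p = 0.331), in a comparison where 1 gene of all tested was called. The livers of these groups did not overlap for Ppard, nor for 10.1% of all genes. The adjusted p ranged from 0.00561 to 0.921 over 12 alternative settings, of which 1 gave a call. Rxra, the most abundant of these receptors and the partner of RAR, lay between 60.7 and 85.3 RPKM, Rxrb between 8.59 and 10.7 RPKM and Rarb, a retinoic acid target, between 1.02 and 2.39 RPKM. None of the 3 was called.

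Of 12 storage and transport genes tested, 3 rose from HFD to HFD+AOS, where 8.75% of all genes were called in either direction. Pnpla2, the adipose triglyceride lipase, which also hydrolyses retinyl esters, rose from 20.5, 19.6 and 18.8 RPKM to 26.6, 26.8 and 29.5 RPKM (log2 fold change 0.47, SE 0.10, adjusted p = 0.0128), with an adjusted p of 0.0574 without HFD 3. Lipe, hormone-sensitive lipase, rose from 4.58, 3.81 and 3.65 RPKM to 6.70, 6.22 and 6.29 RPKM (log2 fold change 0.57, SE 0.15, adjusted p = 0.0287). Bco2, which cleaves carotenoids, rose from 6.78, 7.08 and 5.85 RPKM to 9.05, 8.94 and 9.94 RPKM (log2 fold change 0.45, SE 0.13, adjusted p = 0.0477). The livers did not overlap for any of the 3, nor for 27.2% of all genes. The adjusted p of Lipe was 0.0600 to 0.109 without HFD 2, HFD 3, HFD+AOS 1, HFD+AOS 2 or HFD+AOS 3, and that of Bco2 was 0.0579 to 0.173 without any one of the 6 livers. Ttr, the transthyretin that circulates with Rbp4, and Scarb1, a receptor that takes up carotenoids and lipoprotein lipids, were the most abundant of these, with medians of 5211 and 74.3 RPKM, and were not called.

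In HFD+AOS against AOS, Bco2 rose again (log2 fold change 0.49, SE 0.13, adjusted p = 0.0448), from 6.12, 6.76 and 6.18 RPKM in AOS. Lpl, lipoprotein lipase, fell from 9.17, 10.2 and 10.8 RPKM to 4.04, 4.57 and 6.27 RPKM (log2 fold change -0.91, SE 0.21, adjusted p = 0.0211), and Pnpla3, a lipase with retinyl esterase activity, from 4.33, 1.74 and 2.55 RPKM to 1.59, 0.07 and 0.87 RPKM (log2 fold change -1.11, SE 0.30, adjusted p = 0.0451). Lpl was the one gene of the 40 whose 12 HFD-labelled livers all lay below the 6 others. These livers did not overlap, in either direction, for 0.628% of all genes. The adjusted p of these 3 genes was between 0.126 and 0.181 without Con 3 and AOS 3. With 1 liver left out, the adjusted p was 0.0851 to 0.141 for Bco2 without any of the 6 livers. It was 0.0727 to 0.1005 for Lpl without AOS 2, AOS 3, HFD+AOS 1 or HFD+AOS 2, and 0.0758 to 0.183 for Pnpla3 without AOS 1, AOS 3, HFD+AOS 2 or HFD+AOS 3. The sum of 8 hepatic stellate cell markers, the cells that store retinyl esters, was 72.9 to 96.1 RPKM in AOS and 82.2 to 101 RPKM in HFD+AOS. The 6 hepatocyte markers summed to 58840 to 64890 RPKM in AOS and 67380 to 74730 RPKM in HFD+AOS, without overlap, and their part in the differences between these groups was not tested. Lrat, which esterifies retinol in those cells, lay between 0.92 and 2.77 RPKM and was not called.

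Of 14 oxidoreductases tested, 0 were called in any comparison with limma, where 0.00952% to 8.75% of all genes were called. Adh1, which shares retinol oxidation with many alcohols, and Rdh7 were the most abundant, with medians of 1190.0 and 671 RPKM. Dhrs9, a retinol dehydrogenase, lay between 0 and 0.16 RPKM and did not pass the filter on low values. Among 4 acid synthesis genes tested, Aox1, an aldehyde oxidase, fell from 25.5, 30.4 and 28.5 RPKM in AOS to 18.5, 18.3 and 15.7 RPKM in HFD+AOS (log2 fold change -0.66, SE 0.14, adjusted p = 0.0128), with adjusted p values of 0.0628 without AOS 2, 0.0522 without AOS 3 and 0.0765 without Con 3 and AOS 3. In HFD+AOS against AOS, 5.44% of all genes were called. Aox3 and Aldh8a1 were the most abundant of the 4, with medians of 258 and 138 RPKM, and were not called. Of the other Cyp26 enzymes, Cyp26b1 lay between 0.15 and 3.28 RPKM and Cyp26c1 between 0 and 0.20 RPKM, where Cyp26a1 reached 38.4 RPKM.

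Of the retinoic acid target genes apart from Cyp26a1, 7 were tested. From HFD to A10-FMT, 2 of the 7 had a positive log2 fold change, and the median of the 7 was -0.07. Limma called 1 of them there, beside 6.60% of all genes. From AOS to HFD+AOS, 5 of the 7 were positive, with a median of 0.11, and 2 were called, beside 5.44%. The 7 included Rarres2, which encodes chemerin, an adipokine also made by hepatocytes. Rarres2 was highest in A10-FMT. It lay at 369.6, 389 and 399 RPKM in Con, 425, 372 and 374 RPKM in AOS and 481, 422 and 382 RPKM in HFD. It lay at 548, 493 and 495 RPKM in HFD+AOS, 496, 455 and 442 RPKM in Con-FMT and 631, 654 and 523 RPKM in A10-FMT. Rarres2 rose from HFD to A10-FMT (log2 fold change 0.49, SE 0.10, adjusted p = 0.0110) and from AOS to HFD+AOS (log2 fold change 0.39, SE 0.10, adjusted p = 0.0403). The adjusted p of the former was 0.0548 to 0.0644 without HFD 3, A10-FMT 1 or A10-FMT 2, and that of the latter 0.0660 to 0.157 without AOS 2, AOS 3 or any HFD+AOS liver, and 0.192 without Con 3 and AOS 3. Dhrs3, which reduces retinal and is induced by retinoic acid, had a median of 132 RPKM and was not called, with a log2 fold change of -0.08 from Con to HFD (SE 0.14) and 0.14 from HFD to A10-FMT (SE 0.14).

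**Figure D4:**
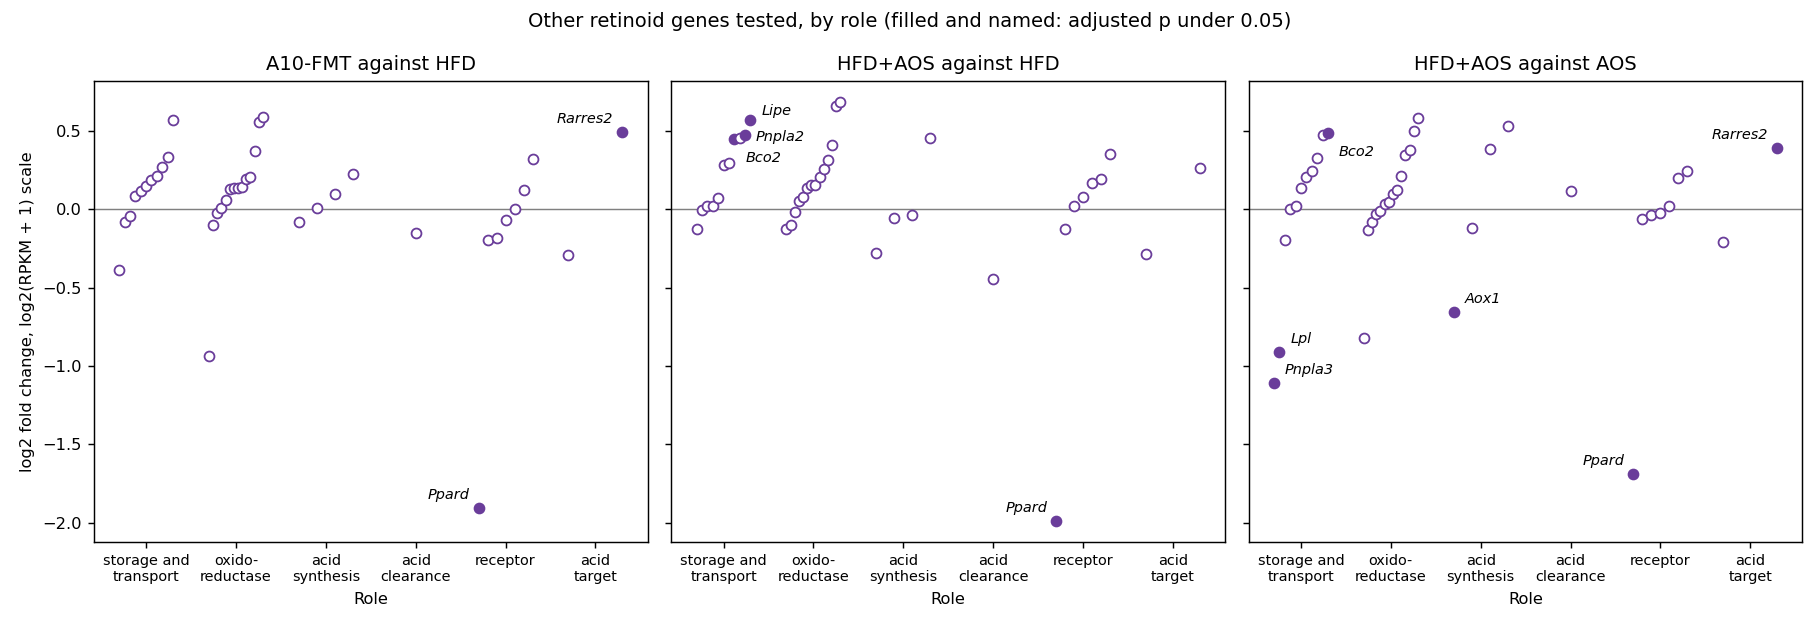
Log2 fold change on the log2(RPKM + 1) scale of the other retinoid genes reported here in 3 comparisons, by the first role listed for each gene. Filled and named points passed an adjusted p under 0.05, and Ppard was the lowest point in each panel.

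For each retinoid gene, the genes with the most similar pattern were found by Pearson's r on log2(RPKM + 1) over the 18 livers, given with the r left after each group's mean was subtracted. These r are descriptions, since livers share groups and all genes tested were searched. Cyp26a1 was most like Cyp3a11 (r = 0.887, and 0.419 within groups), Ddc (0.868 and 0.562) and Hfe (0.841 and 0.434). Rbp4 was most like Bnip3 (0.952 and 0.843), Cyp2e1 (0.944 and 0.756) and Eci2 (0.942 and 0.679). Stra6l was most like Clpx (0.942 and 0.832) and Phospho1 (0.929 and 0.810). For these partners of Rbp4 and Stra6l the r within groups was 0.679 or more. Partners were picked by an r that includes the spread within groups, so a high r there is favoured by the choice.

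Rdh9 was most like Azin1 (0.942 and 0.774), 2900026A02Rik (0.928 and 0.749) and Chn2 (0.924 and 0.446). Rdh16f2 was most like Polk (0.799 and 0.738), Sdc4 (0.796 and 0.520) and Smad3 (0.785 and 0.697). Retsat was most like Tarsl2 (0.903 and 0.863), Etfa (0.899 and 0.868) and Cab39l (0.886 and 0.769). Adh7 was most like Nmrk1 (0.881 and 0.723), Nrep (0.831 and 0.566) and Rev1 (0.829 and 0.503). The lipogenic genes Acacb and Scd1 were among those most like Aldh1a7, with Gas6 (0.890 and 0.728), Acacb (0.889 and 0.582) and Scd1 (0.883 and 0.712). Aldh1a1 had no close match, the highest being Miga2 (0.758 and 0.760), Them6 (0.740 and 0.638) and Mup8 (0.705 and 0.752).

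Among the retinoid genes themselves, Rbp4 had the largest correlations by size over the 18 livers. Rbp4 and Cyp26a1 had an r of -0.821, which was -0.0856 within groups, and Rbp4 and Stra6l had -0.795, which was -0.346 within groups. Rbp4 and Rdh9 had 0.784, which was -0.0826 within groups. Rbp4 and Retsat were alike across livers (0.653) and within groups (0.785). Aldh1a7 and Cyp26a1, the pair that separated the HFD-labelled livers from the others, had an r of 0.730 across livers and -0.162 within groups.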

How the data were processed

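Liver RNA of 18 mice, 3 in each of 6 groups, was analysed from RPKM values deposited by the authors in 1 table of 19057 gene lines, rounded to 2 decimals. By the study's methods the authors mapped reads to reference genes with SOAPaligner, reporting every hit, and converted reads per gene to RPKM, whereas the submitters' processing notes name Bowtie 0.12.2 and mm10. RPKM carry no read numbers, so absolute depth and the precision of low values are unknown. The smallest steps of 16 sparse genes put relative depth between 0.984 and 1.03 of the median. Whether counting used strand is not given in the sources used here.

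Groups came from the treatment labels. DEGseq, named in the methods, needs reads and was not run. Values were log2(RPKM + 1) for genes reaching 1 RPKM in 3 or more livers, 10507 of 17109 above 0. A mean per group was fitted over 18 livers (limma 3.58.1, R 4.3.3, lmFit and eBayes with trend, two-sided), with Benjamini-Hochberg adjustment within each of 8 comparisons. The fit was tested on simulated data before use.

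The retinoid genes, the lists and the tests were chosen with earlier results of these data known. Named genes were all 9 retinoid genes, other retinoid genes called in any comparison, the 2 most abundant of each role, Dhrs9, Lrat, Rarb, and the 3 genes most correlated with each of the 9. Of these, 2 genes are not reported here, though counts over lists include them. Places are from GENCODE M21 (GRCm38) and sequences from RefSeq (GRCm38.p6, Biopython 1.88), matched by symbol for 9 of 9 genes. Same-numbered livers of compared groups did not deviate together (correlations of deviations from -0.177 to 0.225, and 0 of 7 comparisons with every value over 0.1), so the numbers were not taken as pairs. Alternatives were no low-value filter, medians set equal, a pseudocount of 0.1, fitting only the groups compared, a replicate block, each liver left out, and Con 3 and AOS 3 left out together.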

Additional observations from a re-analysis of the deposited data

How the results depend on the processing

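The number of the 9 retinoid genes called in A10-FMT against HFD was 5, and 2 without the low-value filter, 1 with only these groups fitted, and 2 without Con 3 and AOS 3. In HFD+AOS against HFD it was 3, and 4 with medians set equal, 1 without Con 3 and AOS 3, 2 with a pseudocount of 0.1, without the filter or with only these groups fitted. In HFD+AOS against AOS it was 2, and 4 with medians set equal and 3 with only these groups fitted. Counts of 0 became 1 for Con-FMT against HFD and AOS against Con with only these groups fitted, and for A10-FMT against Con-FMT with medians set equal. For the other 40 retinoid genes, A10-FMT against HFD gave 2 calls, and 1 with only these groups fitted. HFD+AOS against HFD gave 4, and 2 without the filter or without Con 3 and AOS 3. HFD+AOS against AOS gave 7, and 3 without the filter, 1 without Con 3 and AOS 3, 9 with medians set equal and 10 with only these groups fitted. The difference in AOS effects gave 0, and 2 with only those groups fitted.

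With 1 liver left out, the 9 genes gave 0 to 1 calls in HFD against Con, 1 to 5 in A10-FMT against HFD, 0 to 2 in A10-FMT against Con-FMT, 1 to 3 in HFD+AOS against HFD, 2 to 3 in HFD+AOS against AOS and 0 to 1 for the difference in AOS effects. The other 40 gave 0 to 1 in HFD against Con, Con-FMT against HFD, AOS against Con and the difference in AOS effects, 1 to 4 in A10-FMT against HFD and in HFD+AOS against AOS, 0 to 2 in A10-FMT against Con-FMT and 2 to 4 in HFD+AOS against HFD. Fewer livers leave a less certain estimate of the spread. With the replicate number as a block, the 9 genes gave 5 calls in A10-FMT against HFD and 3 in HFD+AOS against HFD, as without it, and the other 40 gave 3 in HFD+AOS against HFD and 6 in HFD+AOS against AOS.

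With medians set equal, all genes called in A10-FMT against HFD went from 275 higher and 418 lower to 603 and 467, in HFD against Con from 31 and 9 to 24 and 23, and in A10-FMT against Con-FMT from 48 and 129 to 108 and 135. Of the 9 genes, Stra6l in HFD against Con and Aldh1a7 in AOS against Con, neither called there, turned sign with medians set equal. Precision is limited by 3 livers a group, and the number of reads behind low values, such as those of Cyp26a1 in Con-FMT, is unknown. The causes of these changes were not tested.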

Other observations

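The summed RPKM of 6 Kupffer cell markers, the resident macrophages of liver, was 66.7 to 93.7 in AOS, 60.2 to 68.5 in HFD+AOS, 39.8 to 57.5 in Con-FMT and 42.9 to 52.3 in A10-FMT, and it spanned 40.9 to 92.2 in HFD and 52.8 to 82.2 in Con. The 8 stellate cell markers, a sum to which Ecm1 and Colec11 gave the most and Reln from 2.29 to 6.78, summed to 52.0 to 80.9 RPKM in Con and 93.1 to 102 RPKM in A10-FMT, without overlap. The 6 hepatocyte markers summed to 48230 to 68660 RPKM in Con and 69280 to 71970 RPKM in Con-FMT, also without overlap. Markers of sinusoidal endothelium, of which Clec4g was the most abundant and Stab2 reached 7.52 RPKM, summed to 39.0 to 49.6 RPKM over all livers. Cholangiocyte markers summed to 19.2 to 41.2 RPKM, with the highest sum in Con 1, and Krt19 reached 1.84 RPKM and Epcam 0.54 RPKM. Pancreatic acinar markers reached 3.47 RPKM in Con-FMT 2, with Prss2 at 0.27 RPKM or less. The adipocyte markers Adipoq and Lep were listed at 0 in 14 and 16 of the 18 livers, and Adipoq reached 4.42 RPKM. The part of these cells in the retinoid gene differences was not tested.

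In A10-FMT 1, the liver with the most adipocyte marker transcripts, Lipe lay at 7.40 RPKM against 4.13 and 4.10 in the other A10-FMT livers, and Pnpla2 at 30.4 RPKM against 24.5 and 20.9.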
